A study of Homo sapiens with 6 samples.

Results

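The heat shock proteins and the co-chaperones that work with them were followed as a set of 37 genes in DMS-53, an established human small cell lung cancer cell line. Members were chosen by name: every probe set whose symbol in the platform annotation is, or includes, 1 of the 37 was taken, whatever its values. Of these genes 35 had a probe set, of 21357 named on the array, giving 86 of the 54675 probe sets on the array. The expression of AHSA1 and HSF2 was not analysed here, and only their promoters were read. A filter on low signal left 81 of the 86, out of 40950 probe sets tested in all, and each of the 35 genes kept at least 1. The 5 that did not pass were 1 probe set each of BAG2, BAG5, DNAJB5, HSPD1 and TRAP1. Cells were kept for 24 h in RPMI medium alone (control), with the iron chelator DFO (desferrioxamine, a hydroxamate) at 250 µM, or with the iron chelator Dp44mT (a thiosemicarbazone) at 25 µM. Total RNA was hybridised to Affymetrix Human Genome U133 Plus 2.0 arrays, 1 array per condition in each of 2 sets, so every group had 2 arrays. Whether the sets came from separate cultures is not stated in the labels. Every p-value here therefore rests on the spread among 6 arrays alone, and that spread may be technical.

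Heat shock proteins bind unfolded protein and, with ATP and helper proteins, let it fold or pass it on for degradation. The transcription factor HSF1 is held inactive by chaperones, and when misfolded protein draws these away it forms trimers, binds heat shock elements in promoters and raises the inducible chaperones. Constitutive chaperones such as HSPA8 and HSP90AB1 are abundant without stress, and the mitochondrial pair HSPD1 and HSPE1 folds proteins imported into the matrix. Accordingly the members were described in 4 classes: 13 inducible HSF1 targets, 18 constitutive cytosolic chaperones and co-chaperones, 4 mitochondrial chaperones and 2 heat shock factors.

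A heat shock element is a row of GAA units in alternating orientation. The RefSeq promoter windows (GRCh38.p14, 250 bases before to 50 bases after each start) gave 43 windows for 31 member genes, and CRYAB, FKBP4, STUB1, ST13, BAG4 and HSF1 had none. The strict 3-unit form GAANNTTCNNGAA, read on both strands, was found in 8 of the 43 member windows (18.6%) and in 172 of all 35116 windows (0.49%). The looser 2-unit form, GAANNTTC or TTCNNGAA, which every 3-unit match also contains, was found in 18 member windows (41.9%) and in 13.5% of all windows. By gene, the 3-unit form was present for 4 of 12 inducible targets, 3 of 14 constitutive members and 1 of 4 mitochondrial members. The 2-unit form was present for 10 of 12, 6 of 14 and 1 of 4. HSF2, the 1 heat shock factor with a window, had neither form. The windows of HSPA1L (constitutive) and HSPA1A (inducible) share 241 bases, and their 2-unit match is the same site, counted in both classes. The stretches printed here are shown because the strict form stands in promoters of all 3 chaperone classes, while HSPA1A, HSPA1B, HSPB1 and DNAJB1, classic inducible genes, carry only the 2-unit form in these windows. Capitals mark the matched letters, and positions count from the start of transcription.

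HSPA6 (inducible, chr1:161524446-161524498, plus strand, 3-unit): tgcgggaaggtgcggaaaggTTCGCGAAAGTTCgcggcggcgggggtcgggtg
CHORDC1 (inducible, chr11:90223067-90223129, minus strand, 3 overlapping 3-unit matches): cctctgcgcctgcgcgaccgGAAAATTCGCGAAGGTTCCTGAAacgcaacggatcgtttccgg
HSP90AA1 (inducible, chr14:102087100-102087152, minus strand, 3-unit): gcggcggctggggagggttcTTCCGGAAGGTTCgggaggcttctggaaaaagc
HSP90AB1 (constitutive, chr6:44247758-44247863, plus strand, 2 separate 3-unit matches): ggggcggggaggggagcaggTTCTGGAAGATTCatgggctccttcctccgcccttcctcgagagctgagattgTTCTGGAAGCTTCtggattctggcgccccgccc
HSPA8 (constitutive, chr11:123062159-123062211, minus strand, 3-unit): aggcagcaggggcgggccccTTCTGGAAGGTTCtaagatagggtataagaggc
DNAJB6 (constitutive, chr7:157336853-157336905, plus strand, 3-unit): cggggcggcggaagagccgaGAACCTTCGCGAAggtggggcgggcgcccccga
HSPD1 (mitochondrial, chr2:197500048-197500090, minus strand, 2 overlapping 3-unit matches): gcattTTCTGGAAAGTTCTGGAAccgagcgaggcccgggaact
HSPA1A (inducible, chr6:31815417-31815464, plus strand, 2-unit): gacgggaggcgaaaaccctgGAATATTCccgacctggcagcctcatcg
HSPA1B (inducible, chr6:31827613-31827660, plus strand, 2-unit): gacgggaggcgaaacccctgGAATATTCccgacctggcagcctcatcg
HSPB1 (inducible, chr7:76302471-76302518, plus strand, 2-unit): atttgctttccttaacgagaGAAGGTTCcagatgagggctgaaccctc
DNAJB1 (inducible, chr19:14518417-14518494, minus strand, 2 separate 2-unit matches): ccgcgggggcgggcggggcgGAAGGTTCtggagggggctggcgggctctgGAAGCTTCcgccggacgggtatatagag

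The whole windows of HSPA1A and HSPA1B matched at 277 of 299 bases (92.6%), and every probe set annotated to either of these neighbouring genes is annotated to both. The HSPD1 matches lie between the HSPE1 start and the HSPD1 start of that window, which are 539 bases apart on opposite strands. They end 294 bases upstream of the HSPE1 start, outside the HSPE1 window. A second HSPD1 start, at 197500274, lies nearer to HSPE1. The matches are downstream of it, and its window held neither form. HSPA8 held a further 3-unit match at -230 to -218, and the 3-unit match of DNAJA1 lay after the start, at 4 to 16. No match says only that these letters are not in the window, as for BAG3, whose window held neither form.

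**Figure D1:**
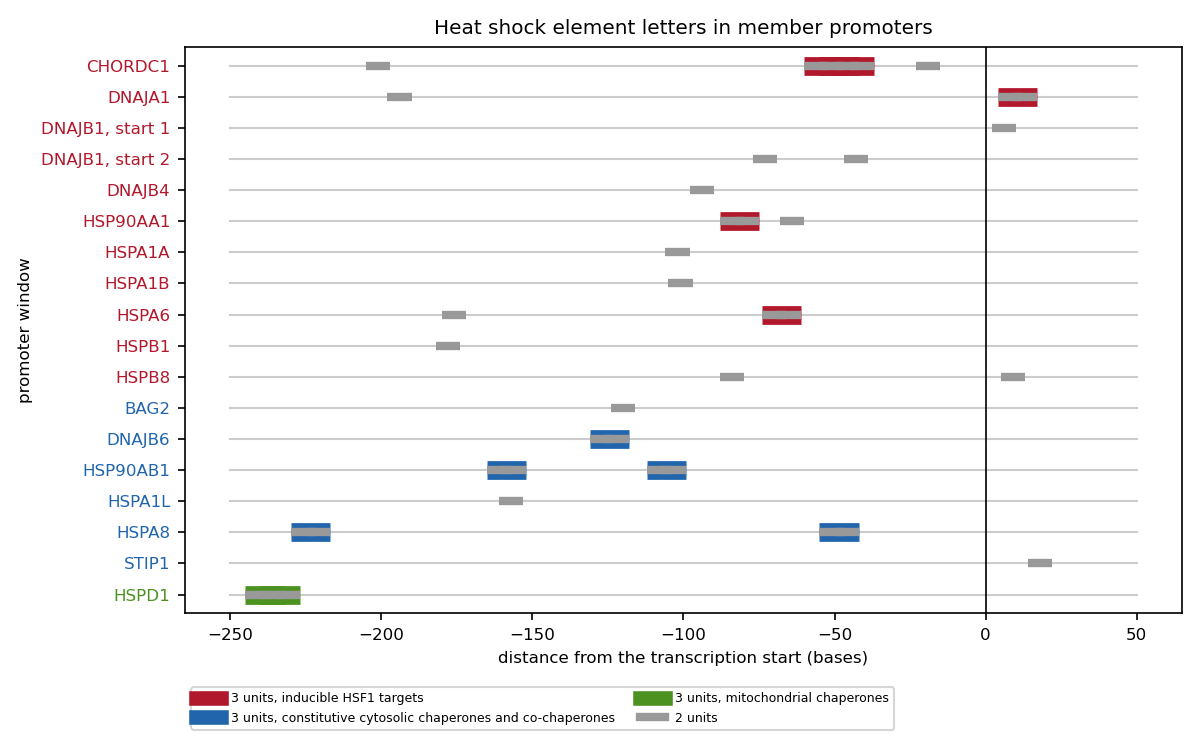
Promoter windows of member genes that hold heat shock element letters, drawn by distance in bases from the transcription start. Wide coloured bars are 3-unit matches by class and grey bars are 2-unit matches. The 3-unit matches of HSPA6, CHORDC1 and HSP90AA1 lie within 100 bases before the start, while the 3-unit matches of HSPD1 lie near -250, at the far end of the window.

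The arrays differed in total signal and in marker levels, both by group and by set. In set 1 the median of the deposited intensities was 88.9 for control, 85.5 for DFO and 83.6 for Dp44mT. In set 2 the same medians were 88.8, 63.0 and 49.9, so both chelator arrays of that set were dim. Wherever a pair of array values is given for a group, set 1 comes first. The arrays were therefore scaled to each other, and without scaling the median log2 difference of all probe sets was -0.30 for DFO and -0.46 for Dp44mT. The array medians fell from control to DFO to Dp44mT in both sets, so dim arrays and treatment cannot be told apart. Scaling would also remove a true fall in signal across all probe sets. All 11 neuroendocrine and all 5 epithelial markers were above the filter limit on every array. The summed neuroendocrine level was nevertheless lower on all 4 chelator arrays, at 27395 and 29699 on the control arrays, 22194 and 21917 with DFO and 21479 and 20441 with Dp44mT. This sum of linear values weighs bright genes most, and INSM1 made up much of its fall. The median neuroendocrine gene differed by -0.12 and -0.30 with DFO and by -0.25 and -0.48 with Dp44mT. Of the 18 neuroendocrine probe sets tested, 10 lay wholly below control with DFO and 12 with Dp44mT, where 27.8% and 32.8% of all probe sets did so. Wholly above control were 1 and 2, where 17.0% and 28.5% of all probe sets were. The list was not of 1 sign: INSM1 differed by -2.21 with DFO and -3.37 with Dp44mT, whereas ENO2 differed by 1.74 and 2.03. Of 13 fibroblast markers, COL1A2, COL3A1, COL5A1, DCN and POSTN were 2.84 to 3.81 log2 units higher on the set 2 chelator arrays than on the set 2 control, while none of the 13 was more than 1 unit higher in set 1. The set 2 control was itself the low array for these 5 genes: COL1A2 read 7.85 on control set 1 and 5.57 on control set 2, against 9.03 and 9.28 on the set 2 chelator arrays. PDGFRB and SPARC were below the limit on every array, and COL6A3, LUM and FAP were lower on both set 2 chelator arrays than on the set 2 control. Among 8 endothelial markers, 2 were more than 1 unit higher in set 2 with each chelator, against 1 with DFO and 0 with Dp44mT in set 1. PECAM1 was the highest of these in set 2, at 2.47 with DFO and 2.83 with Dp44mT. The summed fibroblast level was 3553 and 2510 on the control arrays, 2981 and 5547 with DFO, and 3651 and 6738 with Dp44mT. The part of these differences in the results below was not tested, except where values within each set are given, and in bulk RNA fewer cells of a kind cannot be told apart from less RNA per cell.

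No member probe set passed an adjusted p of 0.05 in either chelator comparison (limma, Benjamini-Hochberg over all 40950 probe sets). Over all probe sets, 0.589% were called with DFO and 1.64% with Dp44mT, so 0 of 81 is near the background in both. At an unadjusted p under 0.05, 9 of the 81 differed with DFO (3 higher and 6 lower), where 5.09% and 5.97% of all probe sets were higher and lower. Likewise 13 differed with Dp44mT (3 higher and 10 lower), where the shares of all probe sets were 6.99% and 14.5%. With DFO both chelator arrays lay above both control arrays for 11 probe sets and below them for 31, where 17.0% and 27.8% of all probe sets did so. With Dp44mT the counts were 15 above and 32 below, where the shares of all probe sets were 28.5% and 32.8%. The median difference of the 81 was -0.13 with DFO, against -0.04 for all probe sets, and -0.15 with Dp44mT, against 0.01. The precision was low: a 95% interval for a member reached a median of 0.63 log2 units to either side. The 2 comparisons share their control arrays, and their values are given side by side only.

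BAG3, DNAJB2 and HSPE1 came nearest to the threshold, and all 3 did so with Dp44mT. BAG3 is the co-chaperone that couples HSP70 to small heat shock proteins and to autophagy, and is an inducible HSF1 target. Its normalized log2 level was 9.48 and 9.49 on the control arrays, 10.56 and 10.36 with DFO, and 10.86 and 10.56 with Dp44mT. All 4 chelator arrays lay above both controls, by 0.98 with DFO (1.97-fold, SE 0.21, adjusted p = 0.183) and by 1.22 with Dp44mT (2.33-fold, SE 0.21, adjusted p = 0.0607). The deposited intensities of BAG3 were 826, 2051 and 2116 in set 1 for control, DFO and Dp44mT, but 981, 914 and 809 in set 2, so in set 2 the chelator arrays stood above the control only after scaling. Without scaling the differences were 0.60 and 0.53. The Dp44mT difference passed the threshold with a filter at the median (adjusted p = 0.0412), with 1 probe set per gene (0.0443), with a mean-variance trend and robust prior (0.0104) and without both set 2 chelator arrays (0.0265), and over all alternatives its adjusted p ran from 0.0104 to 0.681. The DFO difference passed with the trend and robust prior only (0.0374).

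DNAJB2, a neuron-enriched HSP40 with ubiquitin-interacting motifs, was singled out after its values were seen. Its level was 7.65 and 7.50 on the control arrays, 9.12 and 8.67 with DFO, and 9.30 and 8.94 with Dp44mT, with no overlap between control and chelator arrays. The difference was 1.32 with DFO (2.50-fold, SE 0.25, adjusted p = 0.146) and 1.55 with Dp44mT (2.92-fold, SE 0.25, adjusted p = 0.0568), the furthest above control of any member. Over the alternatives the Dp44mT value ran from 0.92 to 1.81 and its adjusted p from 0.0222 to 0.511, under 0.05 in 5 of 15.

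HSPE1, the small lid of the mitochondrial HSPD1 chamber, was lower with both chelators. Its level was 12.18 and 12.31 on the control arrays, 11.64 and 11.45 with DFO, and 11.20 and 10.89 with Dp44mT, so the 3 groups did not overlap. The difference was -0.70 with DFO (SE 0.21, adjusted p = 0.332) and -1.20 with Dp44mT (2.29-fold lower, SE 0.21, adjusted p = 0.0651). The Dp44mT value passed in 3 of 15 alternatives, with adjusted p from 0.00701 to 0.524.

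**Figure D2:**
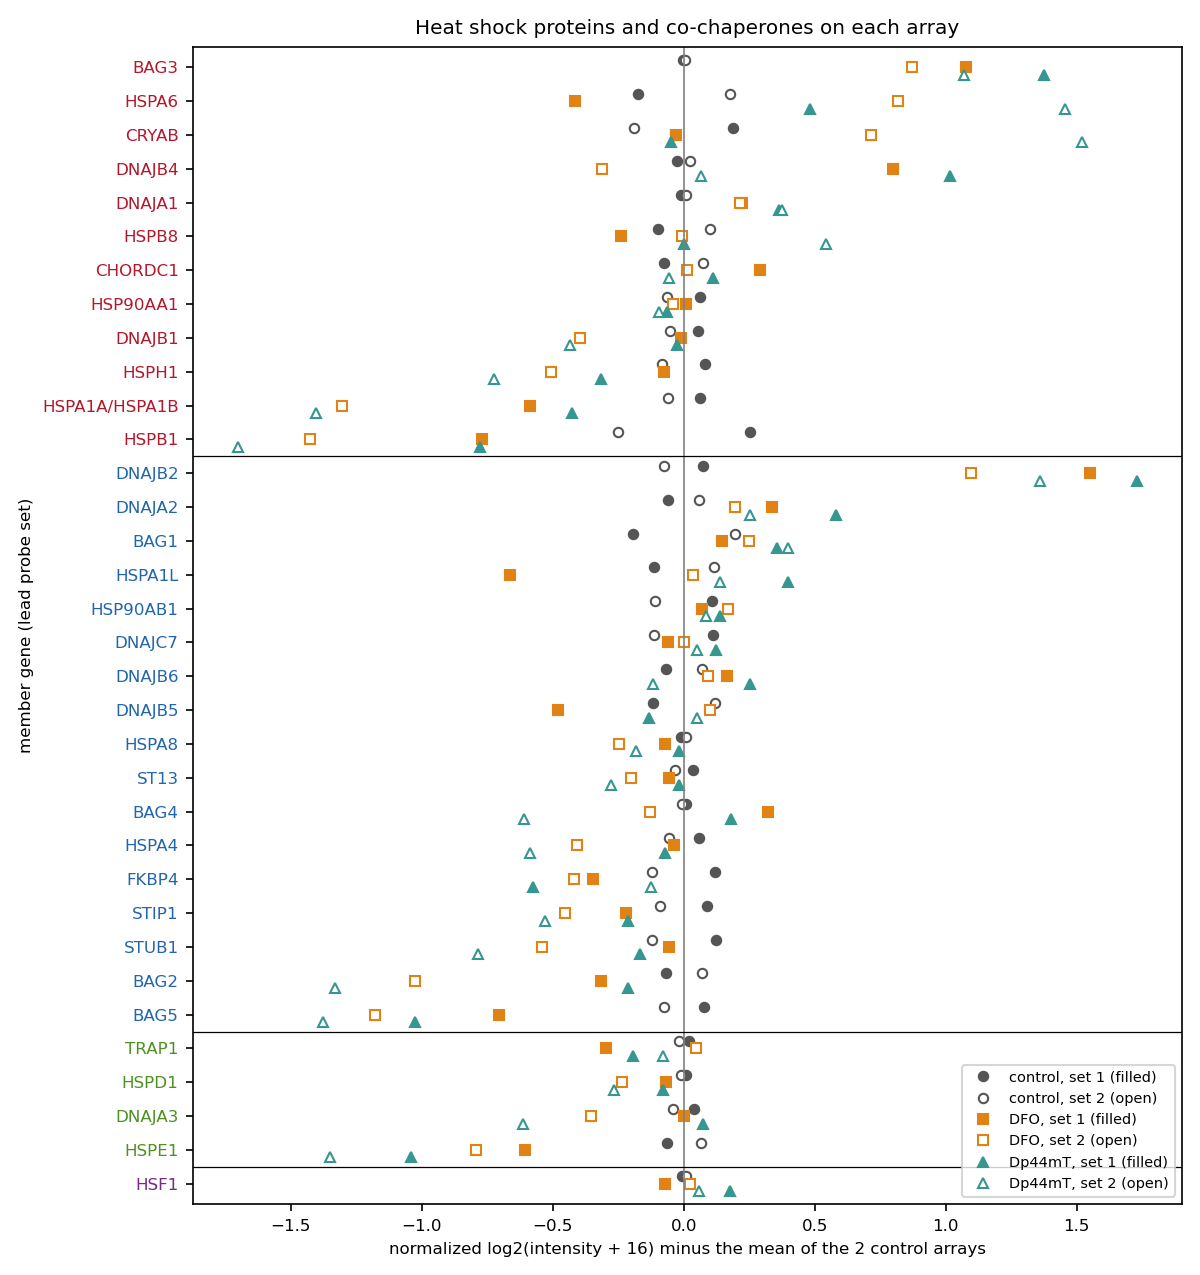
Normalized log2(intensity + 16) of each member's leading probe set on each of the 6 arrays, less the mean of the 2 control arrays; filled symbols are set 1 and open symbols set 2. BAG3 and DNAJB2 lie right of the controls on all 4 chelator arrays and HSPB1, HSPE1 and BAG5 left of them, while CRYAB, HSPA6 and DNAJB4 split by set.

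The inducible HSP70 genes gave differences of both signs. The probe sets of HSPA1A and HSPA1B, the stress HSP70 pair, are shared, so the genes cannot be separated. The leading one read 10.43 and 10.31 on the control arrays, 9.78 and 9.06 with DFO, and 9.94 and 8.96 with Dp44mT. All 4 chelator arrays lay below the controls, with differences of -0.95 (95% interval -1.96 to 0.07) and -0.92 (-1.93 to 0.10) and adjusted p of 0.488 and 0.269. A probe set that also matches HSPA1L gave -0.94 and -0.58, and a further one gave -0.18 and 0.01, so the probe sets of the pair disagreed. HSPA6, a strictly inducible HSP70, read 7.42 and 7.77 on the control arrays, 7.18 and 8.41 with DFO, and 8.08 and 9.05 with Dp44mT. The DFO arrays lay on either side of the controls and both Dp44mT arrays above them. The differences were 0.20 (-1.09 to 1.49) and 0.97 (-0.32 to 2.26, adjusted p = 0.331), which became -0.16 and 0.32 without scaling. The deposited HSPA6 intensities in set 2 were 252, 240 and 282 for control, DFO and Dp44mT, so there they differed far less before scaling. Within sets the HSPA6 difference was -0.24 in set 1 and 0.64 in set 2 with DFO, and 0.66 and 1.28 with Dp44mT, so the larger values came from the set in which 5 fibroblast markers were high, whose part in this result was not tested. Its second probe set differed by 0.01 and 0.21.

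Among the small heat shock proteins, which hold unfolded proteins without ATP, HSPB1 was lower on every chelator array. It read 11.36 and 10.85 on the control arrays, 10.33 and 9.68 with DFO, and 10.33 and 9.40 with Dp44mT. The differences were -1.10 (SE 0.41, adjusted p = 0.423) and -1.24 (SE 0.41, adjusted p = 0.176), neither past the threshold in any of 15 alternatives. CRYAB, a small heat shock protein of muscle and lens, was named after its values were seen because it split by set. It read 5.60, 5.39 and 5.37 in set 1 for control, DFO and Dp44mT, and 5.23, 6.13 and 6.94 in set 2. CRYAB lay near the filter limit of 5.55, with a mean of 5.77 over the 6 arrays and a control mean of 5.41. It passed the filter only through its 2 high arrays of set 2, so its split is described and supports nothing. The 5 fibroblast markers named above, of 13 listed, were high on the same chelator arrays of set 2, and their part in the CRYAB values was not tested. HSPB8, the partner of BAG3, differed by -0.12 with DFO and 0.27 with Dp44mT on its leading probe set, and by -0.25 and -0.09 on the other.

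None of the other inducible members passed the threshold. DNAJB1, the HSP40 that starts the HSP70 cycle, read 9.27 and 9.17 on the control arrays, 9.21 and 8.82 with DFO, and 9.20 and 8.79 with Dp44mT. Its difference was -0.20 (-0.82 to 0.42) and -0.23 (-0.85 to 0.39), and its second probe set gave 0.26 and 0.13. HSPH1, the nucleotide exchange factor HSP110, read 11.19 and 11.02 on the control arrays, 11.03 and 10.60 with DFO, and 10.79 and 10.38 with Dp44mT. On this leading HSPH1 probe set only the Dp44mT arrays lay wholly below the controls, at -0.52 (-1.16 to 0.12), against -0.29 with DFO. Its other probe sets gave -0.42 and -1.03 with DFO and -0.60 and -1.35 with Dp44mT, and on both the arrays of each chelator lay wholly below the controls. HSP90AA1, the inducible HSP90, read 12.78 and 12.66 on the control arrays, 12.73 and 12.68 with DFO, and 12.66 and 12.63 with Dp44mT. The interval of this leading HSP90AA1 probe set allowed no more than 0.44 up or 0.47 down with DFO and 0.38 up or 0.54 down with Dp44mT, and the sign of both small differences (-0.02 and -0.08) turned when array medians were subtracted instead. The other 3 HSP90AA1 probe sets gave -0.25, 0.09 and -0.08 with DFO and -0.26, 0.01 and -0.27 with Dp44mT. DNAJA1, an HSP40 of the cytosol, was higher by 0.22 and 0.37 on its leading probe set, which became -0.14 and -0.17 without scaling, and differed by -0.05 and -0.05 on the other. CHORDC1, an HSP90 co-chaperone, differed by 0.15 and 0.03. DNAJB4 split by set on its leading probe set, with 0.83 in set 1 and -0.34 in set 2 for DFO, and 1.04 and 0.04 for Dp44mT, whose overall difference of 0.54 became -0.057 without scaling.

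Of the constitutive cytosolic members, HSPA8 and HSP90AB1 differed little from control and several co-chaperones were lower, none past the threshold. HSPA8, the housekeeping HSP70, read 13.01 and 13.03 on the control arrays, 12.95 and 12.77 with DFO, and 13.00 and 12.83 with Dp44mT. Its difference was -0.16 (-0.64 to 0.32) and -0.10 (-0.58 to 0.38), the latter turning to 0.02 when array medians were subtracted, and all 4 of its probe sets are also annotated to the small nucleolar RNAs SNORD14C and SNORD14D of its introns. HSP90AB1, the housekeeping HSP90, read 12.70 and 12.48 on the control arrays, 12.66 and 12.76 with DFO, and 12.73 and 12.68 with Dp44mT. Control and chelator arrays overlapped, and the differences of 0.12 (-0.36 to 0.60) and 0.11 (-0.37 to 0.59) became -0.07 and -0.22 without scaling.

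BAG5 and FKBP4, named here after their values were seen, had the probe sets furthest below control in this class, those of FKBP4 being dim. BAG5, a BAG-domain exchange factor of HSP70, read 9.20 and 9.05 on the control arrays, 8.42 and 7.94 with DFO, and 8.10 and 7.75 with Dp44mT, a difference of -0.94 (adjusted p = 0.279) and -1.20 (adjusted p = 0.0883). A second BAG5 probe set gave -0.75 and -1.38. FKBP4, the HSP90-bound immunophilin of steroid receptor complexes, differed by -0.38 and -0.35 on its leading probe set. A second FKBP4 probe set read 10.81 and 10.78 on the control arrays, 9.96 and 9.87 with DFO, and 9.85 and 10.24 with Dp44mT, with differences of -0.87 and -0.75. The 2 dimmest FKBP4 probe sets gave -1.01 and -0.98 with DFO and -0.93 and -1.36 with Dp44mT. Their means over all arrays, 5.74 and 5.71, were near the filter limit of 5.55. Only their control means, 6.38 and 6.49, lay above it, so they passed through the controls and add no support. The 2 brighter FKBP4 probe sets were lower by unequal amounts.

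Of the remaining co-chaperones, STIP1, which bridges HSP70 and HSP90, differed by -0.34 and -0.37. STUB1, the ubiquitin ligase CHIP, differed by -0.30 and -0.48. ST13, an HSP70-interacting protein, differed by -0.13 and -0.15 on its leading probe set, and HSPA4, an HSP110-type exchange factor, by -0.22 and -0.33. Their other probe sets were further below control, down to -0.50 and -0.71 for ST13 and -0.61 and -0.96 for HSPA4. BAG2 differed by -0.67 and -0.77 on its leading probe set, with -1.09 and -1.40 in set 2 against -0.25 and -0.15 in set 1. Its second tested probe set differed by -0.46 and -0.43, with -0.41 and -0.64 in set 2 and -0.50 and -0.22 in set 1. BAG1 was 0.20 and 0.38 above control on its leading probe set and -0.47 and -0.79 on another, so its probe sets disagreed in sign. The HSP40 proteins DNAJA2, DNAJB5, DNAJB6 and DNAJC7 ranged from -0.19 to 0.27 with DFO and from -0.04 to 0.42 with Dp44mT on their leading probe sets. Their other probe sets reached 0.43 with DFO, for DNAJB6, and were as low as -0.29 with Dp44mT, for DNAJC7. BAG4 was at 0.10 and -0.21 on its leading probe set, and a second one stood above control on all 4 chelator arrays, by 0.73 and 0.57, so its probe sets disagreed in sign with Dp44mT. HSPA1L was at -0.31 and 0.27.

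Of the mitochondrial chaperones, the others differed less than HSPE1. HSPD1, the chamber that HSPE1 caps, read 13.19 and 13.17 on the control arrays, 13.11 and 12.94 with DFO, and 13.10 and 12.91 with Dp44mT. All 4 chelator arrays lay below the controls, by -0.15 (-0.64 to 0.33) and -0.17 (-0.66 to 0.31). A dim HSPD1 probe set split by set, with 0.85 and 1.55 in set 1 for the 2 chelators and -0.09 and -0.63 in set 2. TRAP1, the mitochondrial HSP90, differed by -0.12 and -0.14, and DNAJA3, the mitochondrial HSP40, by -0.18 and -0.27. HSF1 itself read 9.16 and 9.17 on the control arrays, 9.09 and 9.19 with DFO, and 9.34 and 9.22 with Dp44mT. Its DFO arrays lay on either side of the controls (-0.02, -0.48 to 0.44), and its Dp44mT difference of 0.12 (-0.34 to 0.58) became -0.60 without scaling and -0.23 with array medians subtracted. The second HSF1 probe set gave -0.34 and -0.26. These arrays measure RNA, and HSF1 is known to act mainly through trimer formation and phosphorylation of existing protein.

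**Figure D3:**
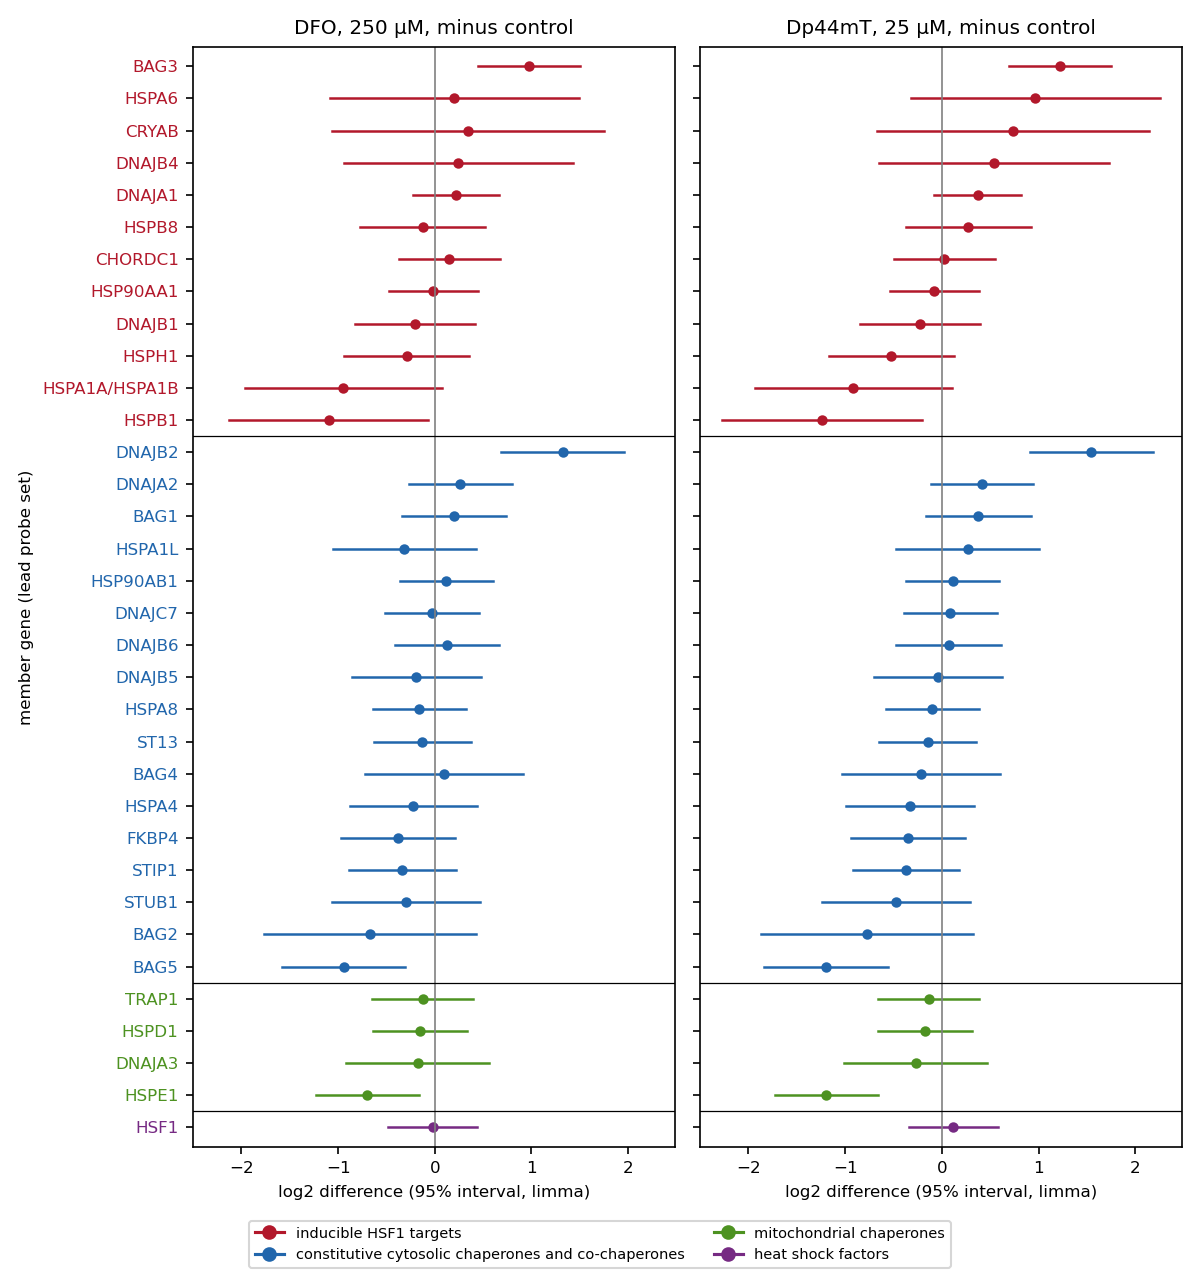
Log2 difference from control of each member's leading probe set with its 95% interval from limma, for DFO at 250 µM (left) and Dp44mT at 25 µM (right), coloured by class. The intervals of BAG3, DNAJB2, HSPB1, BAG5 and HSPE1 leave out 0 in both panels, although no adjusted p was under 0.05.

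The inducible HSF1 targets were then set against the other classes. The median difference from control was -0.04 with DFO and -0.02 with Dp44mT over 26 inducible probe sets, and -0.19 and -0.22 over 45 constitutive ones. The mitochondrial class, of 8 probe sets, had medians of -0.11 and -0.16, and the 2 HSF1 probe sets -0.18 and -0.07. The inducible median exceeded the constitutive one by 0.15 with DFO (0.06 within set 1 and 0.09 within set 2) and by 0.20 with Dp44mT (0.11 and 0.22). Groups did not overlap for 4 inducible probe sets above control and 8 below with DFO, and for 7 and 7 with Dp44mT. In the constitutive class the counts were 7 above and 20 below with each chelator, and in the mitochondrial class 0 above with 2 and 5 below. The shares of all probe sets were 17.0% above and 27.8% below with DFO, and 28.5% and 32.8% with Dp44mT. Leading probe sets of the 8 genes with a 3-unit heat shock element had a median of 0.12 with DFO (-0.16 to 0.22) and 0.05 with Dp44mT (-0.17 to 0.97). The 20 with a window and a probe set but no such match, HSPA1A and HSPA1B counted as 1, had medians of -0.20 (-1.10 to 1.32) and -0.18 (-1.24 to 1.55).

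**Figure D4:**
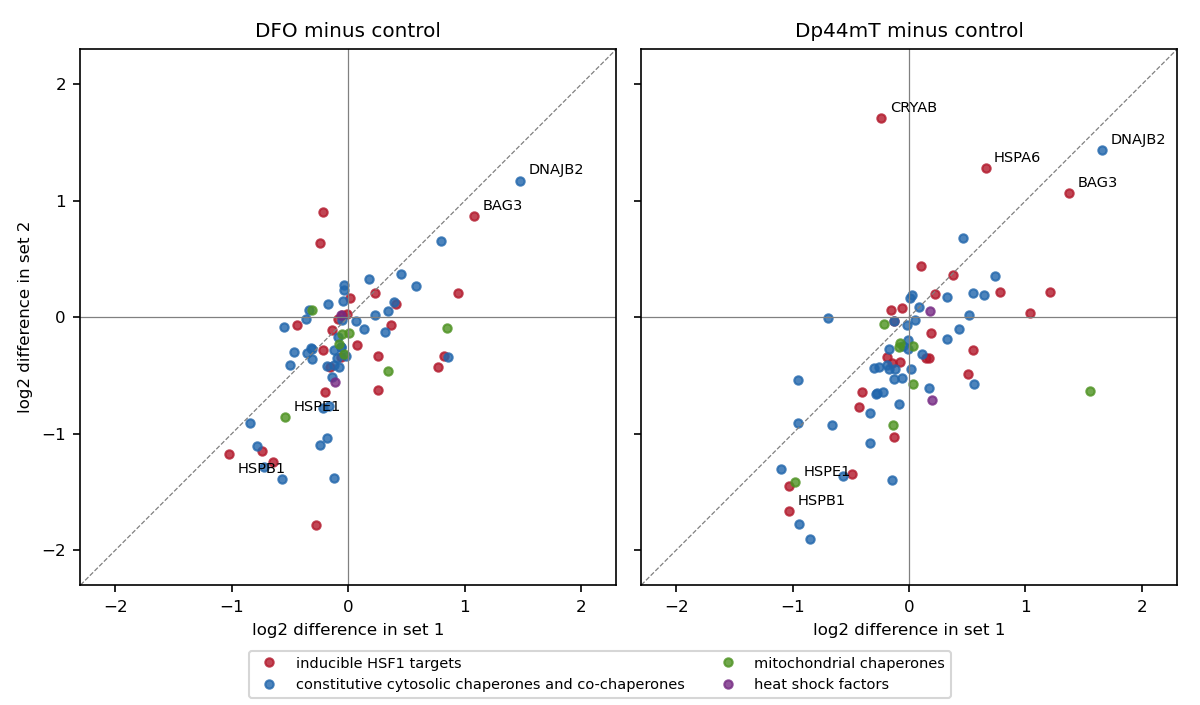
Log2 difference from control of the 81 member probe sets in set 1 (horizontal) and set 2 (vertical), for DFO (left) and Dp44mT (right), coloured by class; the dashed line marks equal values. BAG3 and DNAJB2 are above 0.8 in both sets and HSPE1 and HSPB1 below -0.5, while CRYAB with Dp44mT is -0.24 in set 1 and 1.71 in set 2.

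Dp44mT and DFO were compared directly at the doses used, 25 and 250 µM, so the difference is not one at matched dose. No probe set of the 40950 passed the threshold (0%), and at an unadjusted p under 0.05 the share was 3.29% of all and 0 of the 81 members. Both Dp44mT arrays lay above both DFO arrays for 8 members and below for 9, where 12.9% and 12.4% of all probe sets did so. The member nearest to a difference was HSPE1, at -0.50 with Dp44mT relative to DFO (95% interval -1.03 to 0.03). The interval was -0.28 to 0.77 for BAG3, -0.41 to 0.86 for DNAJB2, -0.99 to 1.05 for the HSPA1A and HSPA1B pair and -0.52 to 2.06 for HSPA6. For the HSP70 genes this fit, which holds no term for the set, leaves room for differences of 1 log2 unit. Within sets 1 and 2 the pair differed by 0.16 and -0.10, and HSPA6 by 0.90 and 0.64. Deviations of same-numbered DFO and Dp44mT arrays from their group means correlated at 0.830, so these intervals include variation that the 2 chelator arrays of a set share.

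Neighbouring chaperone lists place the members in context. Of 21 probe sets for other HSP70 and small heat shock genes, 1 passed with Dp44mT (1.64% of all probe sets) and none with DFO (0.589% of all). It belonged to HSPA13, a microsomal HSP70, which read 8.23 and 8.45 on the control arrays, 9.99 and 9.47 with DFO, and 10.35 and 10.24 with Dp44mT. HSPA13 was 1.96 higher with Dp44mT (SE 0.25, adjusted p = 0.0343), against 1.39 with DFO (adjusted p = 0.121). Of 27 probe sets for the cytosolic chaperonin TRiC and its partner prefoldin, 0 passed, the medians were -0.22 and -0.34, and the groups did not overlap for 0 above and 14 below control with DFO (17.0% and 27.8% of all probe sets) and for 4 and 17 with Dp44mT (28.5% and 32.8%). Of 36 probe sets for other HSP90 and HSP70 co-chaperones, 0 passed, with medians of -0.17 and -0.22. Among 38 probe sets for chaperones of the endoplasmic reticulum, 3 passed with each chelator, where 0.589% (DFO) and 1.64% (Dp44mT) of all probe sets did so. All 3 were of DNAJB9, an HSP40 of that compartment and a target of its unfolded protein response. The brightest DNAJB9 probe set read 9.44 and 9.44 on the control arrays, 11.77 and 11.60 with DFO, and 12.19 and 12.19 with Dp44mT, a rise of 2.25 (SE 0.19, adjusted p = 0.0185) and 2.75 (SE 0.19, adjusted p = 0.00983). The DNAJB9 differences ran from 1.84 to 2.34 with DFO and from 2.20 to 2.78 with Dp44mT over the alternatives, but the call was lost in 8 of 15 alternatives with DFO and in 5 of 15 with Dp44mT. Both calls were lost without scaling (adjusted p = 0.756 and 0.135) and without either control array. The DFO call was also lost with array medians subtracted (adjusted p = 0.0736) and on leaving out any other array, and the Dp44mT call on leaving out either Dp44mT array. The HSPA13 call was also lost in 7 of 14 alternatives, including no scaling (adjusted p = 0.329) and leaving out either control array or either Dp44mT array. The medians of the endoplasmic reticulum list were 0.21 and 0.38. Its groups did not overlap for 22 probe sets above and 4 below control with DFO (17.0% and 27.8% of all probe sets). With Dp44mT the counts were 24 and 6 (28.5% and 32.8%).

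**Figure D5:**
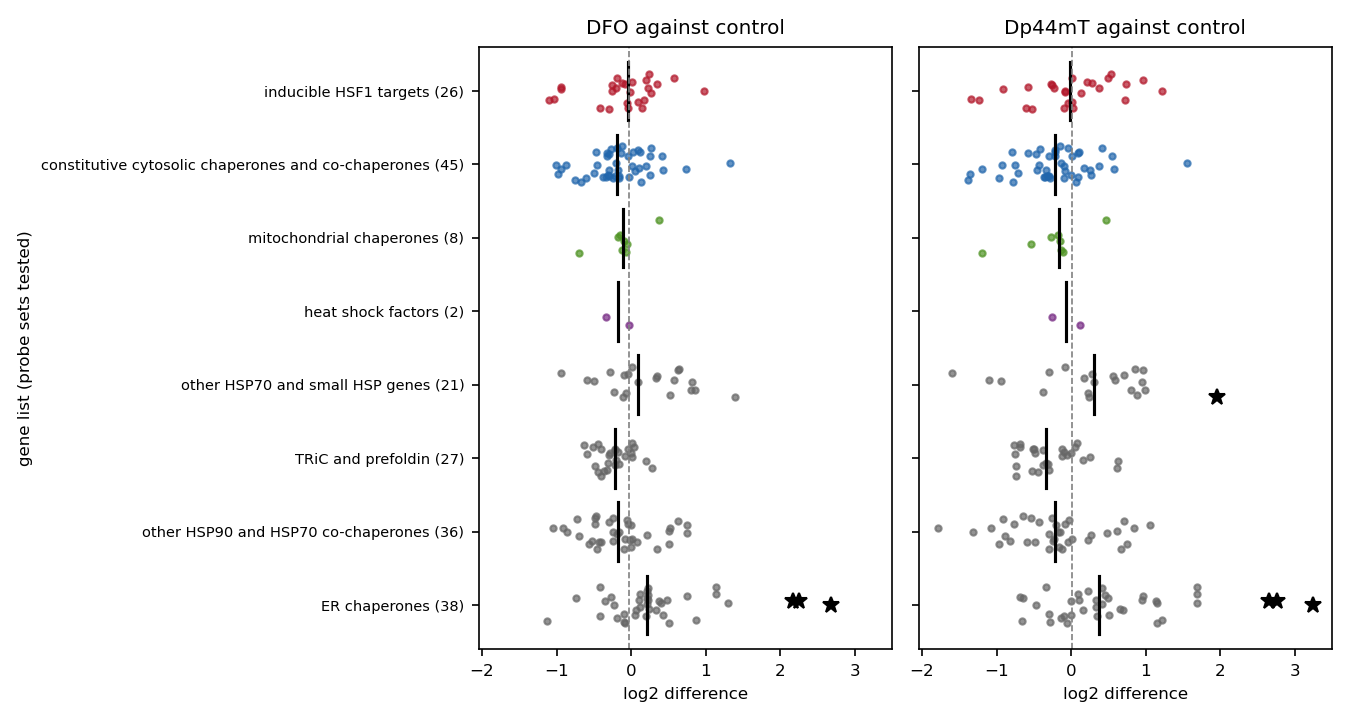
Log2 difference from control of every tested probe set in the 4 member classes (colours) and the 4 related lists (grey), for DFO (left) and Dp44mT (right). Black bars are list medians, the dashed line is the median of all probe sets tested, and stars mark probe sets with an adjusted p under 0.05, which are the 3 of DNAJB9 in both panels and 1 of HSPA13 with Dp44mT.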

How the data were processed

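The 6 arrays were analysed from the deposited table of the authors, which holds 1 linear intensity per probe set and array. Affymetrix Expression Console 1.1 is named per the submitters' processing notes, and the summarization and normalization are not given in the sources used here. Probe sets were named from the platform annotation (41097 with 1 symbol, 1801 with several, 11777 with none), and 62 control probe sets were left out. Values were taken as log2(intensity + 16), quantile normalized over the 6 arrays, and probe sets with a mean under the 25th percentile (5.55) were left out, which leaves 40950. limma 3.58.1 in R 4.3.3 was fitted to all 3 groups together, with no covariate (3 residual and 2.53 prior degrees of freedom), and p-values were adjusted by Benjamini-Hochberg over all probe sets tested. With 2 arrays a group, exact permutation reaches no p below 0.333, so it was not used. The script was tested on simulated data, in which few of the changes drawn passed the threshold and the share of false calls was above the nominal one. A member that missed the threshold may therefore still differ.

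The members and all lists (4 member classes, 4 related chaperone lists and 5 marker lists) were chosen with earlier results of these data known. Array values were given, whatever they showed, for HSPA1A, HSPA1B, HSPA6, HSPB1, DNAJB1, BAG3, HSPH1, HSPA8, HSP90AA1, HSP90AB1, HSPD1, HSPE1 and HSF1. They were also to be given for members past the threshold, and the expression of HSF2 was not analysed here. Where a gene had several probe sets, the one with the highest mean led. Up to 4 members past the threshold were named from the related lists, and other members are named as chosen after their values were seen. Of the other marker lists, 8 endothelial genes had a summed level of 1639 and 1319 on the control arrays, 1492 and 2652 with DFO and 1707 and 3197 with Dp44mT, and 7 leukocyte genes 648 and 788, 630 and 833, and 717 and 876. Alternatives were other scaling, a pseudocount of 1, other filters, 1 probe set per gene, another variance model, the set number as a block, leaving out each array, and leaving out both set 2 chelator arrays.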

Additional observations from a re-analysis of the deposited data

How the results depend on the processing

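The count of member probe sets past the threshold stayed at 0 with DFO in every alternative but the mean-variance trend and robust prior, which gave 1 (BAG3). With Dp44mT it became 3 with a filter at the median, 3 with 1 probe set per gene (BAG3, DNAJB2 and HSPE1 in both), 5 with the trend and robust prior (these and DNAJA1 and FKBP4), and 11 without both set 2 chelator arrays (5 higher and 6 lower), where the chelator groups have 1 array each and are assumed to vary like the controls. The direct comparison of Dp44mT with DFO gave 0 throughout, and leaving out any 1 array gave 0 for members in all 3 comparisons. Over all probe sets the calls moved from 241 with DFO to between 31 (no scaling) and 639 (trend and robust prior) with all arrays kept, and from 670 with Dp44mT to between 39 (no scaling) and 2077 (trend and robust prior), or 3544 without both set 2 chelator arrays. Without either control array both comparisons gave 0. Without 1 DFO array DFO gave 0, and without 1 Dp44mT array Dp44mT gave 0. Leaving out 1 array gave 0 to 52 with DFO and 0 to 629 with Dp44mT in all. With Dp44mT and a filter at the median, 1114 of all 27289 probe sets were called, beside 3 of 72 member probe sets. With 1 probe set per gene the calls were 569 of 16868, beside 3 of 32 members. With the trend and robust prior they were 2077 of 40950, beside 5 of 81 members. Whether members passed more often than other probe sets in these settings was not tested. With the set number as a replicate block, 1 member (DNAJB2) passed with Dp44mT and 0 with DFO, and all calls went to 208 with DFO and 1245 with Dp44mT. The labels do not say that a set number marks a shared batch, and deviations of same-numbered arrays from their group means correlated at -0.230 (control and DFO), -0.327 (control and Dp44mT) and 0.830 (the 2 chelators), so the numbers were not taken to pair the arrays.

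The excess of the inducible over the constitutive median with DFO became 0.17 with no scaling and 0.17 with array medians subtracted, 0.12 with a filter at the median, 0.31 with 1 probe set per gene and 0.088 without both set 2 chelator arrays, and ran from 0.061 to 0.149 when 1 array was left out. With Dp44mT it became 0.37 with 1 probe set per gene and 0.12 without both set 2 chelator arrays, and ran from 0.048 to 0.200 when 1 array was left out. Of 650 recomputed values of named genes, 20 changed sign. Without scaling these were DNAJA1 (-0.14), HSPA6 (-0.16) and HSP90AB1 (-0.065) with DFO and DNAJA1 (-0.17), DNAJB4 (-0.057), HSP90AB1 (-0.22) and HSF1 (-0.60) with Dp44mT. With array medians subtracted they were HSP90AA1 (0.064) with DFO and HSP90AA1 (0.017), HSPA8 (0.020) and HSF1 (-0.23) with Dp44mT. Without both set 2 chelator arrays they were HSP90AA1 (0.012) and HSPA6 (-0.44) with DFO. With 1 array left out, the DFO value ran from -0.081 to 0.044 for HSP90AA1, from -0.071 to 0.023 for HSF1, from -0.42 to 0.80 for HSPA6, from -0.30 to 0.81 for DNAJB4 and from -0.028 to 0.71 for CRYAB, and the Dp44mT value from -0.049 to 1.52 for CRYAB. The cause of these changes was not tested. With 2 arrays a group, their number limits the precision.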
